A study of Homo sapiens with 3 samples.

Results

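This account covers 42 genes of the lysosome and of autophagy in human neurons. The rule picks the members by gene name and uses no measured value, but the members were chosen with earlier results of these data known. They are 42 of the 20037 protein-coding genes on the main chromosomes in the RefSeq table used. By role they are 6 membrane proteins of the lysosome, 13 lysosomal enzymes, 2 soluble cofactors, 6 parts of the proton pump, 3 transcription factors of the MiT/TFE family, 5 proteins that start an autophagosome and 7 proteins of the conjugation step and its cargo. For each gene the chromatin measurement gives whether an accessible site lay at an outer end, how strong it was, and how many sites lay inside the gene or around it. All 3 samples form 1 group: neurons derived from the cell line KOLF2.1J-hNGN2 at day 14 of differentiation. KOLF2.1J is an established line of human induced pluripotent stem cells. NGN2 is a transcription factor whose forced expression turns stem cells into neurons, and the promoter that drives it is not given in the sources used here. The cells were 1 line, with no treatment and no second genotype, so the design holds no contrast between conditions. ATAC-seq (assay for transposase-accessible chromatin) uses the Tn5 transposase to cut and tag DNA that nucleosomes leave open.

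Lysosomes are acidic compartments in which hydrolases break down proteins, lipids, glycans and nucleic acids. The vacuolar proton pump (V-ATPase) sets the acidity, membrane glycoproteins line the organelle, and transporters and channels return the products to the cytosol. Autophagy delivers cytosolic material to lysosomes: a kinase complex and a lipid kinase complex start a membrane, ubiquitin-like systems attach LC3 and GABARAP proteins to it, and receptors such as p62 bind the cargo. TFEB, TFE3 and MITF bind a short palindrome, CACGTG, best known with flanking bases as the CLEAR element, in promoters of many lysosomal genes. Neurons do not divide and rely on this clearance along long axons, and inherited loss of many of these genes causes neuronal storage disease or neurodegeneration.

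The deposited list held 145092 summits, the points of highest signal, in 65234 distinct intervals. The 3 samples were pooled into 1 list, so no value per sample was analysed here, no replicate error can be given and no test of a difference between samples was possible. The values per summit were a fold enrichment, which is the ratio of tags (reads counted at the summit) to the background of the peak caller, and a −log10 p. Fold enrichment ranged from 1.29 to 31.9 with a median of 3.86. Tag counts recovered from the 2 values ranged from 58 to 3783 with a median of 189. Total depth per sample is unknown. The bounds after each tag count below are its exact Poisson 95% interval, which covers counting error only. PCR copies are not independent molecules, so these bounds are too narrow if copies were kept. Wilson intervals are over genes and do not cover this error. Of 12 neuronal marker genes, 10 had a summit within 1 kb of an outer end, or 83.3%, beside 68.8% of all protein-coding genes. Their fold enrichments ran from 1.71 for TUBB3 to 10.8 for SYN1 with a median of 8.02, and 1 of the 10 lay above the median of accessible coding genes, 10.4. The other 2, RBFOX3 and ELAVL4, had summits of 5.29 and 3.48 at a recorded start. Of 6 pluripotency markers 1 was accessible at an outer end (LIN28A, 3.04), and DPPA4 had a summit of 5.41 at a recorded start. Of 6 glial markers 3 were accessible: S100B at 8.87, MBP at 3.34 and AQP4 at 2.83. Of 6 microglial and macrophage markers 1 was (CX3CR1, 4.07).

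An accessible outer end, here a summit within 1 kb of either end of the gene, was found for 40 of the 42 members. That was 95.2% (Wilson 95% interval over genes 84.2 to 98.7), beside 68.8% of all protein-coding genes. Gene length was matched by taking, for each member, the 200 other coding genes nearest to it in length. Their share averaged 69.1% and ranged from 51.5% to 84.0% over the members. The 2 members without an accessible end were CTSZ and MAP1LC3A. No start was recorded for MAP1LC3A, so a start inside its bounds would have been missed. Both ends were accessible in 7 members, or 16.7%, beside 6.70% of coding genes: TPP1, NPC2, GABARAP, MCOLN1, ATG9A, TFEB and ATP6AP1. This share was not matched for length, and these members ran from 2.44 kb for GABARAP to 52.2 kb for TFEB. Ends of neighbours were looked up only at the highest summit, so the second end may belong to another gene.

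The strength at these ends was spread around that of other genes. The median fold enrichment of the 40 accessible members was 11.8, with quartiles of 9.09 and 14.0, beside 10.4 for the 13779 accessible coding genes, whose quartiles were 6.83 and 13.3. The members ran from 4.37 for SCARB2 to 16.9 for ATG7, and 26 of 40 lay above the coding median. The median tag count was 1062 in members and 931 in coding genes, and 25 members lay above the latter. Intervals at member ends had a median width of 1229 bp, beside 1318 bp. Among genes of similar length the median member stood at the 64.1 percentile of fold enrichment. Fold enrichment and tags ranked the members differently, since the background varied from gene to gene. LAMP2 reached 16.0 with 753 tags over a background of 46.2, whereas GABARAP reached 7.84 with 1856 tags over a background of 236.

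**Figure D1:**
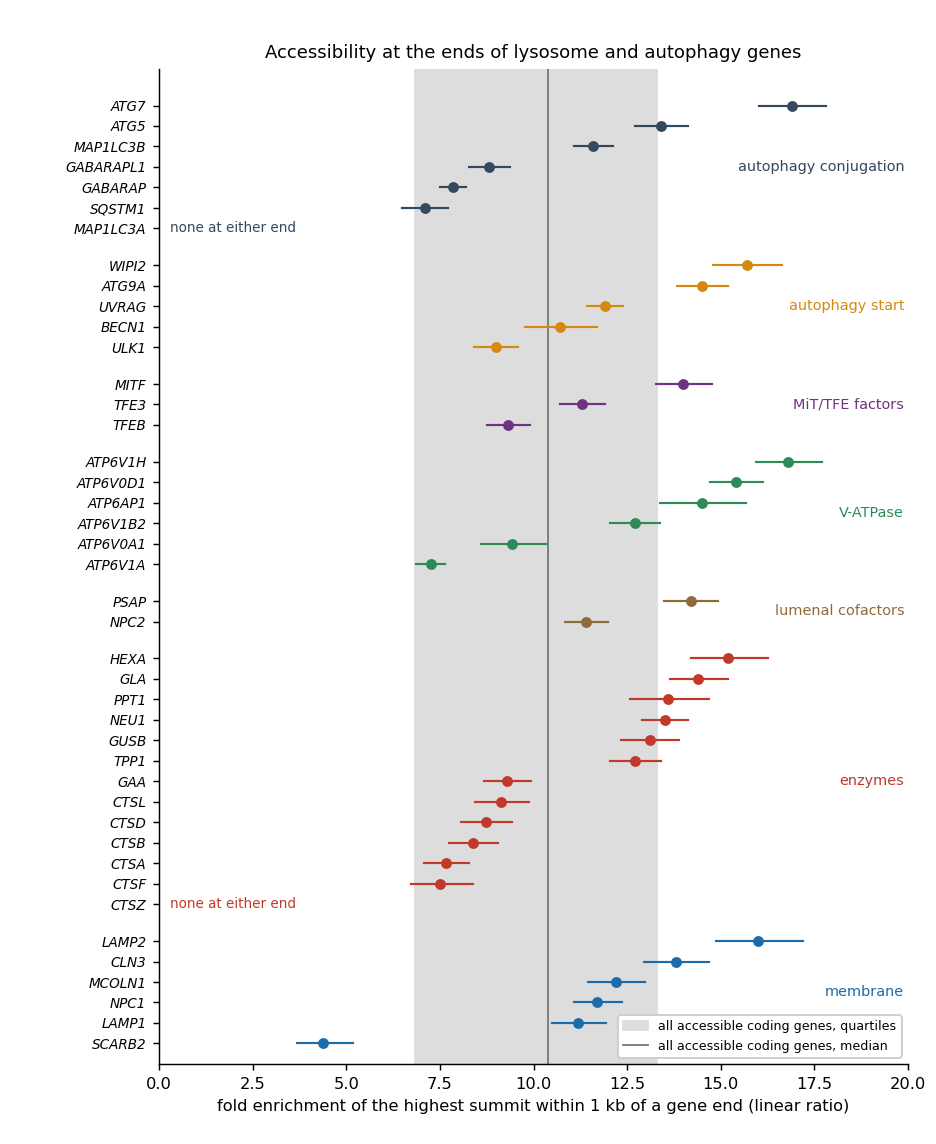
Fold enrichment of the highest summit within 1 kb of an outer end (x axis, linear ratio) for each of the 42 members, grouped and coloured by role; lines are exact Poisson 95% intervals from the tag counts. The grey band spans the quartiles of accessible coding genes, 6.83 to 13.3, and the line is their median of 10.4; CTSZ and MAP1LC3A had no summit at either end.

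Some of these ends are shared with a neighbour, and then the open region cannot be assigned to 1 gene. Of the 40 accessible members, 9 had an end of another protein-coding gene within 1 kb of the summit, or 22.5%, beside 26.1% of accessible coding genes. The pairs were CTSA with NEURL2 and SPATA25, GLA with HNRNPH2, GAA with CCDC40, NEU1 with SLC44A4, NPC2 with ISCA2, ATP6V1A with NAA50, ATG9A with ANKZF1, MAP1LC3B with FBXO31 and SQSTM1 with MGAT4B. A further 7 members shared the region only with a non-coding gene, such as HEXA with HEXA-AS1 and UVRAG with UVRAG-DT. The remaining 24 had no other annotated end there.

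A promoter window of 250 bases before to 50 after the recorded start was given by RefSeq (GRCh38.p14) for 33 members; LAMP2, CTSB, HEXA, PSAP, ATP6V1A, ATP6V1B2, ATP6V1H, UVRAG and MAP1LC3A are named only. The core word CACGTG, which reads the same on both strands, occurred in 9 of the 33 windows, or 27.3% (Wilson 95% interval over genes 15.1 to 44.2). It occurred in 8.88% of the 15843 coding windows, and in 10.1% of the 11100 whose recorded start was accessible. The members were LAMP1, CLN3, MCOLN1, CTSA, CTSD, CTSF, GAA, NEU1 and ATP6V0D1. They held 19 copies in all. The longer word TCACGTG, searched on both strands and always containing the core, was present in the same 9 windows (27.3%, beside 4.78% of coding windows), and 18 of the 19 copies carried that extra base on at least 1 side. Copies at 2 or more places were found in 6 members, or 18.2% of windows, beside 0.953% of coding windows. The word was searched because it is already known from promoters of many lysosomal genes, so its excess here is not an independent finding. A word match is a description of these letters and shows no binding.

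The LAMP1 window held 6 copies, more than any other coding window. The copies are printed because 4 of them follow each other in a row, with the first base at −192, −176, −159 and −142 from the start. Sequences are from RefSeq GRCh38.p14, 5′ to 3′ on the strand of the gene, and capitals mark the core word.
LAMP1, chr13:113297040-113297059, plus strand: gccgggtCACGTGggtccag
LAMP1, chr13:113297056-113297075, plus strand: ccagggtCACGTGccgctgc
LAMP1, chr13:113297073-113297092, plus strand: tgcgggtCACGTGccgctgc
LAMP1, chr13:113297090-113297109, plus strand: tgcgggtCACGTGtcggcct
LAMP1, chr13:113297204-113297223, plus strand: gcgggatCACGTGacgcccg
LAMP1, chr13:113297231-113297250, plus strand: cgcagctCACGTGacaagcg
The accessible summit of LAMP1 lay at −124 from the start, between the fourth and the fifth copy.

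In MCOLN1 and GAA a copy was flanked symmetrically, as gtCACGTGac, which occurred at 3 of the 19 places. CTSF held the only copy without the extra base on either side, the second line given for it. CTSA and CTSD had their copies within 50 bases before the start. Capitals again mark the core word.
MCOLN1, chr19:7522576-7522595, plus strand: aggcggtCACGTGaggggct
MCOLN1, chr19:7522603-7522622, plus strand: accgggtCACGTGaccgagg
GAA, chr17:80101498-80101517, plus strand: gccgcgtCACGTGacccacc
GAA, chr17:80101543-80101562, plus strand: cgccggtCACGTGacccgcc
CTSA, chr20:45891286-45891305, plus strand: agactgtCACGTGgcgccgg
CTSA, chr20:45891303-45891322, plus strand: cggagttCACGTGactcgta
CTSD, chr11:1763962-1763981, minus strand: ccgcgccCACGTGaccggtc
CTSF, chr11:66568717-66568736, minus strand: taacaagCACGTGatagagg
CTSF, chr11:66568645-66568664, minus strand: cgcgcccCACGTGcctcctg

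For the 3 members with the word and the highest fold enrichments, ATP6V0D1, CLN3 and NEU1, the 250 bases before the start show where in the promoter it lies. In CLN3 a second copy spans the start and is cut off by the end of the printed stretch.
ATP6V0D1, chr16:67481158-67481407, minus strand: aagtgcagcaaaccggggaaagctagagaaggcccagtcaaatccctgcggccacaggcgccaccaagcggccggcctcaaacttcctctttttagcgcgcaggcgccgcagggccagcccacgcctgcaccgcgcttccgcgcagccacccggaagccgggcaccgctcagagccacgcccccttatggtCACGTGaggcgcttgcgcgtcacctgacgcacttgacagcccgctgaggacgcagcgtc
CLN3, chr16:28492075-28492324, minus strand: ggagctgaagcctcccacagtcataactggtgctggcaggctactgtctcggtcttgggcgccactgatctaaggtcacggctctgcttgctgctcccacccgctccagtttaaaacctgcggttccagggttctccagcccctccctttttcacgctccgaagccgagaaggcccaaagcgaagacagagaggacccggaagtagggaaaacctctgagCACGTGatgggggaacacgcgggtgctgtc
NEU1, chr6:31862822-31863071, minus strand: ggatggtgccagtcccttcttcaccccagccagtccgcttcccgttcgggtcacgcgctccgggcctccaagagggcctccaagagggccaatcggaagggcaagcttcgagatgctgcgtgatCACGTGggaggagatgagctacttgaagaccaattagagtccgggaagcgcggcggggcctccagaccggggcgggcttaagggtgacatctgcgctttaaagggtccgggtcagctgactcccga

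Of the 19 copies in members, 17 lay wholly before the recorded start. Each lay between 1 and 127 bp from the nearest summit, with a median of 48.0 bp. For coding genes, a distance was available for 1266 copies, with a median of 56.0 bp, a range of 0 to 1030 bp, and 86.7% within 150 bp. These are not all copies, since 1407 coding windows held the word. The copies counted all had a summit within 1030 bp, so the distances do not show how near copies lie to summits in general. Among the copies in members, the nearest to a summit was that of CTSA at −25, 1 bp away. The word was unevenly spread over the roles. It occurred in 9 of the 20 windows of lysosomal members and in 0 of the 13 windows of the MiT/TFE and autophagy members, and at 0 of 13 a share of up to 23.1% remains possible. This pooling of roles was chosen after the values were seen. Members with the word had a median fold enrichment of 11.2 (7.51 to 15.4, n = 9) and members without it 11.6 (4.37 to 16.9, n = 23 accessible of 24), so the ranges overlapped almost wholly. These values are the highest at an outer end, which was not always at the window searched. SCARB2, with 4.37 at its outer end, had 9.77 at its recorded start. GABARAP had 5.39 at its start, and ATG5 had no summit there. The median GC content of the windows was 67.7% in members with the word and 68.8% in those without. It was 68.7% over the 33 members, 62.7% over all coding windows and 65.8% over those with an accessible start.

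Other promoter words stood nearer to their shares in windows with an accessible start. The GC box GGGCGG, counted on both strands as all words were, was in 78.8% of member windows, beside 58.5% of coding windows and 71.8% of those with an accessible start. CCAAT was in 33.3%, beside 36.4% and 36.8%. TATAAA was in 3.03%, beside 9.63% and 5.50%, and the 1 member with it was ATG5, whose recorded start was not accessible.

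**Figure D2:**
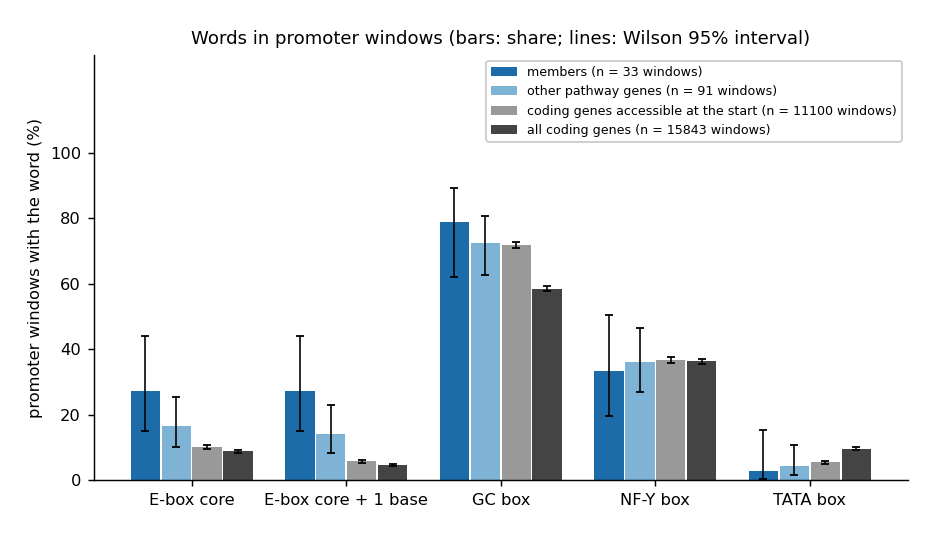
Share of promoter windows that held each word (y axis, percent) in members, other lysosome and autophagy genes, coding genes with an accessible start and all coding genes; lines are Wilson 95% intervals. For the E-box core the shares were 27.3%, 16.5%, 10.1% and 8.88%.

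Where a start was recorded, the open site sat on it. Of the 33 members with a recorded start, 31 had a summit within 1 kb of it, beside 70.1% of coding genes with a window. In 28 members the recorded start was an outer end, and in 5 it lay inside the gene. For the 32 with both an accessible end and a recorded start, the distance between start and highest summit had a median of 78.0 bp, and 26 lay within 200 bp. The 6 farther ones were SCARB2, ATG5 and GABARAP, whose highest end summit was not at the recorded start, and SQSTM1, TFE3 and BECN1. In SQSTM1 the summit of 7.09 lay 569 bp into the gene, while the summit at −81 bp had only 1.59. In TFE3 the 2 summits, of 11.3 and 11.0, lay at −402 and −331 bp from the start. In BECN1 the summit of 10.7 lay at −448 bp from the start.

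**Figure D3:**
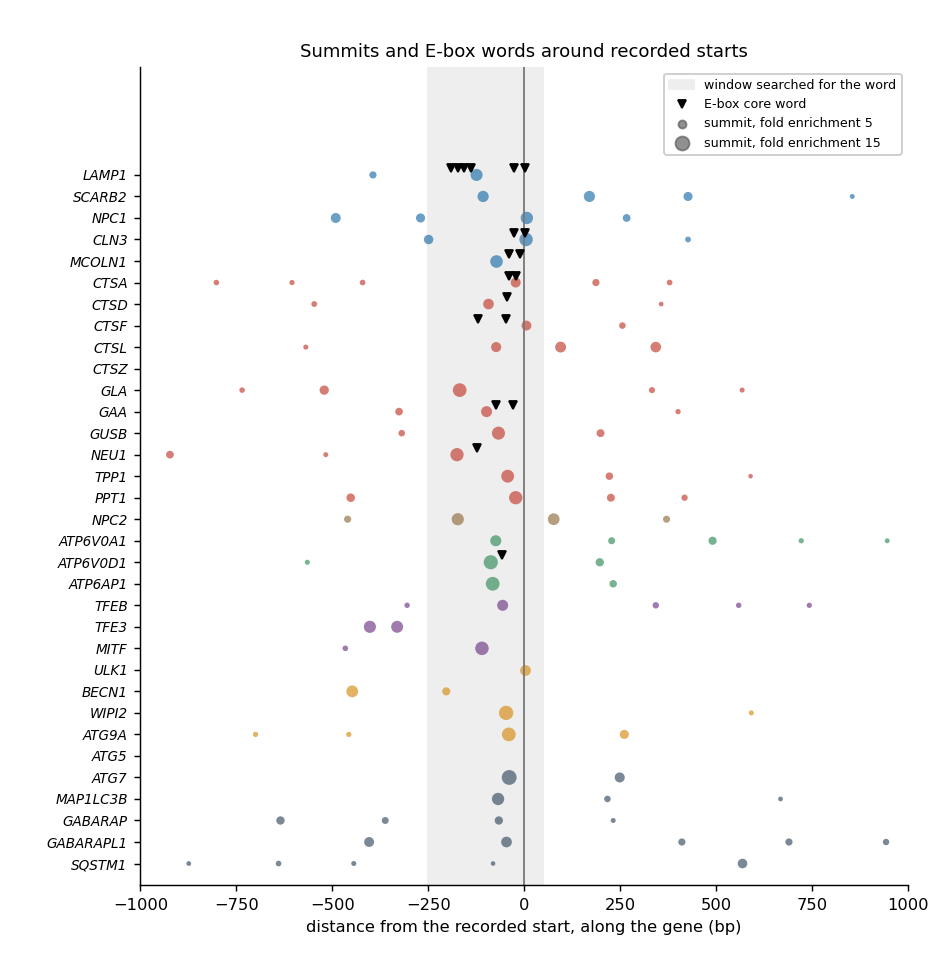
Summits within 1 kb of the recorded start of 33 members (x axis, distance in bp along the gene, 0 at the start; area of each point proportional to fold enrichment) with the copies of the E-box core word as triangles. Rows without points, CTSZ and ATG5, had no summit there; the 6 LAMP1 triangles surround its main summit at −124 bp.

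The membrane proteins were accessible in 6 of 6, with a median fold enrichment of 11.9. LAMP1 and LAMP2 encode the abundant glycoproteins that line the lysosome. LAMP1 (chr13:113297239-113323672) had its site at chr13:113296552-113297895 with a fold enrichment of 11.2 and 948 tags (889 to 1010). LAMP2 (chrX:120426148-120469349), on the other hand, had a narrower site at chrX:120468563-120469644 with a fold enrichment of 16.0 and 753 tags (700 to 809). LAMP2 thus had the higher ratio and the lower tag count. CLN3, a membrane protein lost in juvenile Batten disease, lies at chr16:28466653-28492082. Its site at chr16:28491375-28492513 reached 13.8 with 1001 tags (940 to 1065). MCOLN1, the calcium channel TRPML1, lies at chr19:7522624-7534009. Its site at chr19:7521946-7523086 reached 12.2 with 998 tags (937 to 1062). NPC1, the membrane cholesterol exporter, reached 11.7 with 1332 tags.

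SCARB2 was the lowest accessible member at its outer end. Its product, LIMP-2, is the receptor that carries glucocerebrosidase to lysosomes. The outer end of SCARB2 (chr4:76158737-76234532) had a site at chr4:76233562-76234672 with a fold enrichment of 4.37 and 131 tags (110 to 155). The recorded start lies 20.7 kb inside these bounds. There a site at chr4:76212876-76214393 reached 9.77 with 1482 tags, and an end of FAM47E lay at it too. With a stricter minimum score of 830 the outer end was no longer called.

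The 13 enzymes split by family. Of the 6 cathepsins, which are mostly proteases, 5 were accessible, and all 5 lay below the coding median of 10.4, between 7.51 and 9.13. Of the other 7 enzymes all 7 were accessible, with a median of 13.5, and 6 lay above 10.4. This split was made after the values were seen. CTSF (chr11:66563464-66568606), a cysteine protease, was the lowest at 7.51 with 321 tags (287 to 358) over chr11:66567945-66568880. CTSA (chr20:45891335-45898820), which also protects neuraminidase and beta-galactosidase, had 7.66 with 642 tags (593 to 694) over chr20:45890097-45892026. CTSD (chr11:1752755-1763927), the main aspartic protease, had 8.73 with 649 tags (600 to 701) over chr11:1763460-1764668. CTSB and CTSL, cysteine proteases, had 8.39 and 9.13 with 638 and 622 tags. The tag counts of CTSA, CTSB, CTSD and CTSL overlapped in their counting intervals, and that of CTSF was lower.

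CTSZ, the sixth cathepsin, had no summit within 1 kb of either end of chr20:58995185-59007254, while 62.0% of genes of similar length did. A single site inside it, at chr20:58997254-58998071, lay 9.39 kb into the gene and had a fold enrichment of 3.81 and 150 tags. Its promoter window was 81.0% GC.

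Among the other enzymes, HEXA, a subunit of beta-hexosaminidase that is lost in Tay-Sachs disease, was highest at 15.2 with 849 tags. GLA, the alpha-galactosidase lost in Fabry disease, had 14.4 with 1313 tags, at a region shared with HNRNPH2. PPT1 and TPP1, a thioesterase and a peptidase lost in neuronal ceroid lipofuscinoses, had 13.6 and 12.7 with 645 and 1370 tags. The ratios were close and the tag counts were not. NEU1 (chr6:31857659-31862821), a sialidase, had 13.5 with 1805 tags (1723 to 1890) over chr6:31862490-31864118, the most tags of any member enzyme. GUSB, beta-glucuronidase, had 13.1 with 1124 tags. GAA (chr17:80101581-80119881), the acid glucosidase lost in Pompe disease, had 9.29 with 879 tags (822 to 939) over chr17:80101045-80102365. GAA was the only one of these 7 below the coding median. The cofactors PSAP, the precursor of the saposins, and NPC2, the soluble cholesterol carrier, had 14.2 and 11.4 with 1514 and 1527 tags.

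The proton pump had the highest median of the 7 roles, 13.6, with 6 of 6 members accessible. ATP6V1H (chr8:53715543-53843245), a regulatory subunit of the cytosolic sector, had 16.8 with 1397 tags (1325 to 1472) over chr8:53842569-53843657. This placed it at the 98.6 percentile among genes of similar length. ATP6V0D1 (chr16:67438019-67481157), a subunit of the membrane sector, had 15.4 with 1812 tags (1730 to 1897) over chr16:67480555-67481871. ATP6AP1, an accessory subunit, had 14.5 with 639 tags, and ATP6V1B2, a subunit of the catalytic ring, had 12.7 with 1448 tags. ATP6V0A1, a form of the large membrane subunit that is abundant in neurons, had 9.43 with 476 tags (434 to 521).

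ATP6V1A (chr3:113747035-113812056), the catalytic subunit, was the third lowest of all members by ratio at 7.25. Its tag count of 1383 (1311 to 1458) was nonetheless above the coding median of 931, over a background of 190. The site was the widest at a member end, 2461 bp at chr3:113745186-113747646 with 8 summits, and it reached the end of NAA50.

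All 3 MiT/TFE factors were accessible. TFEB (chr6:41683978-41736223) had 9.32 with 1000 tags (939 to 1064) over chr6:41734748-41736132, at −56 bp from a recorded start that lies 615 bp inside the outer end. TFE3 (chrX:49028726-49043357) had 11.3 with 1378 tags (1306 to 1453) over chrX:49042981-49044161. MITF (chr3:69739464-69968332), better known in melanocytes, had 14.0 with 1378 tags (1306 to 1453) over chr3:69738867-69740155. MITF thus had the highest ratio of the 3 and TFEB the lowest, and TFE3 and MITF had equal tag counts. None of the 3 windows held CACGTG.

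The proteins that start autophagosomes were accessible in 5 of 5, with a median of 11.9. WIPI2 (chr7:5190233-5233855), which reads the lipid made by the VPS34 complex, was highest at 15.7 with 1129 tags (1064 to 1197) over chr7:5189713-5190915. ATG9A, the lipid scramblase that seeds the membrane, had 14.5 with 1780 tags, at a region shared with ANKZF1. UVRAG (chr11:75815210-76144232), a partner of beclin 1, had 11.9 with 2344 tags (2250 to 2441) over chr11:75814424-75815933, the most tags at any member end. BECN1, beclin 1 itself, had 10.7 with 487 tags. ULK1 (chr12:131894622-131923150), the kinase that triggers the process, had 8.99 with 907 tags (849 to 968) over chr12:131894231-131894940. ULK1 was the only one of the 5 below the coding median.

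The conjugation step and its cargo had the lowest median of the 7 roles, 10.2, with 6 of 7 accessible and a range of 7.09 to 16.9. ATG7 (chr3:11272397-11576353), the activating enzyme shared by both conjugation systems, was the highest of all members at 16.9 with 1391 tags (1319 to 1466) over chr3:11271814-11272834. ATG5, part of the ligase that lipidates LC3, had 13.4 with 1392 tags at its outer end. Its recorded start lies 9.49 kb inside and had no summit within 1 kb. MAP1LC3B, the LC3 protein used as the common marker of autophagosomes, had 11.6 with 1955 tags. GABARAPL1, of the other LC3 branch, had 8.81 with 994 tags. GABARAP had its highest summit, 7.84, beyond the far end of the gene and only 5.39 within 1 kb of its start. SQSTM1 (chr5:179806393-179838078), which encodes the receptor p62, had 7.09 with 527 tags (483 to 574) over chr5:179806657-179807587.

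MAP1LC3A (chr20:34546844-34560345), another LC3 gene, had no summit within 1 kb of an end, while 65% of genes of similar length did. No start was recorded for it, so only the outer bounds were judged. The nearest site, at chr20:34558288-34559105, lay inside the gene and had 6.16 with 259 tags. It was 1.71 kb from 1 end and 11.8 kb from the other, and whether a start lies there was not checked. It was called when the window was widened to 2 kb. This summit of MAP1LC3A was thus outside the 1 kb limit, and the highest summit of SQSTM1, at 569 bp, was inside it.

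Inside the genes the members held 37 intervals with a summit more than 1 kb from both ends. They lay in 17 members, or 40.5%, beside 40.9% of coding genes. The median member held 0, and so did the median gene of similar length. Against the median of genes of their length, 11 members were above, 28 at and 3 below. Where that median was 0, no member could lie below it, so these counts show no excess. The median member stood at the 41.6 percentile among genes of its length. The mean was 0.881 per member, beside 1.33 over all coding genes. Sites inside were weaker than those at ends, with a median fold enrichment of 4.83, a range of 2.43 to 10.9 and a median of 173 tags, and 3 lay at the end of another gene. Exons and introns were not separated, since the annotation used gives gene bounds.

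ATG7 held the most, 9 intervals over 304 kb, beside a median of 6 in genes of its length (71.2 percentile). Its strongest, at chr3:11334841-11335642, had 9.30 with 280 tags. MITF held 5, beside 4, and all were weak, with 3.01 to 5.39 at 116 to 209 kb from its recorded start. UVRAG, the longest member at 329 kb, held 2, beside 7, which put it at the 5.0 percentile. SCARB2 held 3, of which 1 was the recorded start described above. ATP6V1H also held 3, with 3.67 to 4.83, beside 2. PSAP, with 2 intervals in 35.0 kb, had a strong one at chr10:71839863-71840919 with 10.4 and 1136 tags, 10.9 kb from the end that carries the accessible site. SQSTM1 held 2, and the stronger, at chr5:179820344-179821965, had 6.36 with 838 tags, 14.5 kb into the gene. That tag count exceeded the 527 at its end. ULK1 held 2, of which the nearer, 1.59 kb into the gene, had 5.70 with 592 tags. The highest ratio inside any member was in NPC1, 10.9 with 407 tags at chr18:23515828-23516599, within the bounds of RMC1 too.

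**Figure D4:**
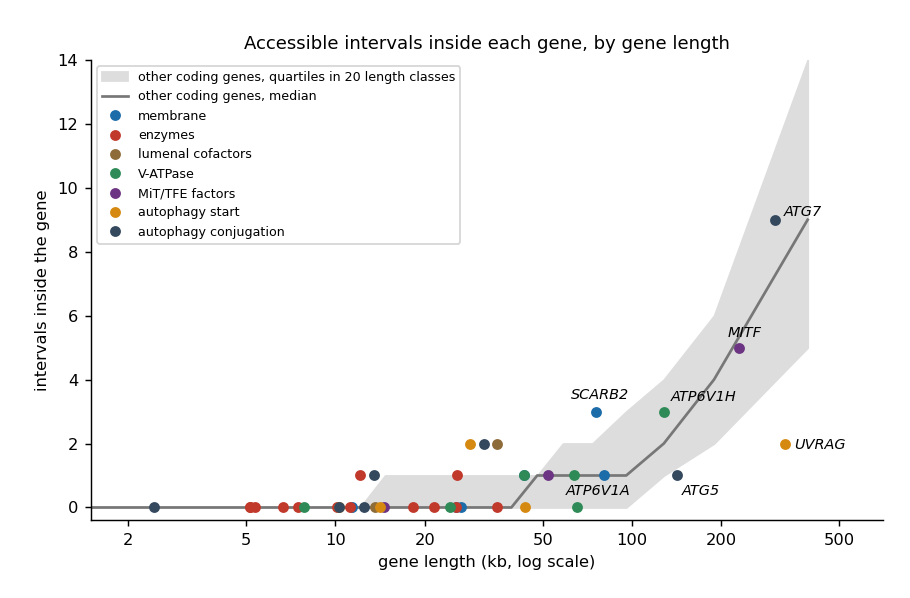
Number of intervals inside each member (y axis) against its length in kb (x axis, log scale), coloured by role; the line and band are the median and quartiles of other coding genes in 20 length classes. ATG7 lay at 9 and UVRAG, the longest, at 2, while most members shorter than 50 kb lay at 0.

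Around the genes, within 50 kb of an end and more than 1 kb from the outer end of any annotated gene, the members had 93 distal intervals. They were spread over 34 members, or 81.0%, beside 77.1% of coding genes with at least 1. The median was 2 per member, and 2 in genes of similar length; 19 members were above, 8 at and 15 below. Their median fold enrichment was 5.85, with a range of 2.71 to 14.5 and a median of 235 tags. Which gene such a site acts on was not measured. Starts inside the bounds of another gene did not count as ends, so some of these sites may be promoters of other genes.

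MCOLN1 and ATP6V0D1 had 7 each, both at the 99.0 percentile for genes of their length. The 7 around MCOLN1 had ratios of 2.97 to 9.73, and the nearest, at chr19:7534526-7536036 in the bounds of PNPLA6, lay 1.65 kb past its far end with 9.02 and 853 tags. Those around ATP6V0D1 ran from 2.71 to 10.3, and the strongest lay 40.1 kb away in the bounds of RIPOR1. WIPI2 had 6, with the strongest, 11.3 with 642 tags at chr7:5240058-5241448, 6.54 kb past its far end. TPP1 (chr11:6612768-6619422), whose end site at chr11:6618691-6619791 had 1370 tags (1298 to 1445), had 5 around it, all between 3.28 and 8.05. ATP6V1H also had 5, and among them was the strongest distal site of any member, 14.5 with 689 tags at chr8:53692611-53693531, 22.3 kb from its end. That ratio was close to the 16.8 at the end of ATP6V1H itself. Next came CTSB with 13.4 and 2194 tags, 39.9 kb away in FDFT1, which was above the 8.39 at its own end. ATP6V1A had 12.6 with 820 tags, 26.7 kb away in GRAMD1C, and GABARAP 12 with 1230 tags, 34.7 kb away in DLG4. In both the distal ratio also exceeded that at the member's end. The sites in FDFT1, GRAMD1C and DLG4 may lie at starts of those genes, which was not checked.

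The wider pathway was described with 120 further genes. An outer end was accessible in 105, or 87.5% (Wilson 95% interval over genes 80.4 to 92.3), beside the 68.8% of all coding genes, with a median fold enrichment of 12, and 70 lay above the coding median. The 3 highest were ATP6V1E1, a stalk subunit of the pump, at 19.5, SLC38A9, the lysosomal arginine sensor, at 16.7 and PIK3C3, the lipid kinase VPS34, at 16.7. No accessible outer end was found for 15, and most of these are known from immune cells, bone or kidney: CTSK, CTSS, CTSW, ACP5, CD68, LAPTM5, TCIRG1, ATP6V0A4, ATP6V0D2, ATP6V1G3 and TFEC. VAMP8, a fusion protein of the late step, was not accessible either. How many of the 105 accessible genes are known from the same tissues was not counted. ATG101, ATG4A and MAP1LC3C lacked a site at an outer end but had one at a recorded start inside, of 14.0, 15.3 and 3.36. MAP1LC3B2, a near-identical copy of MAP1LC3B, had 4.50 with 140 tags, and reads could be misplaced between the 2 copies, so its value is uncertain.

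By step, accessible ends were found in 28 of 32 other enzymes, 27 of 29 membrane and signalling proteins, 16 of 17 proteins of the start, 10 of 12 of conjugation and 9 of 10 receptors and fusion proteins. The core word CACGTG occurred in 15 of 91 windows, or 16.5% (10.3 to 25.4), beside the 8.88% of all coding windows. The flanked word was in 13, or 14.3%, beside 4.78%. Here it was in 10 of 56 windows of lysosomal genes and in 5 of 35 windows of autophagy genes. The absence of the word from the 13 member windows of autophagy and its factors was not seen in the wider list of autophagy genes. Among those with the word were CLCN7, LAMTOR1, LAMTOR4, RRAGC, ATP6V1G1, ATG14 and ATG3.

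The cathepsin values were set in a longer list of cathepsins, the 6 members included, which was not meant as the full family. Of the 13 listed cathepsins 9 were accessible, or 69.2%, close to the 68.8% of all coding genes. Of the 9, 8 lay below the coding median, and CTSV was above it at 15.3. The accessible ones outside the members were CTSV, CTSC at 9.72, CTSO at 8.29 and CTSH at 7.07. Of the 32 other lysosomal enzymes, the 7 members included, 31 were accessible, or 96.9%, with a median of 11.6. Of these 18 lay above the coding median and 13 below. The members are thus counted again in both lists. The list of further enzymes without any member also held 32 genes, cathepsins among them. There 28 were accessible, 13 above the coding median and 15 below. CTSK, CTSS, CTSW and CTSZ had no accessible end.

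The pump genes were also listed by known tissue range. Restricted use here means use in some tissues only, which can include neurons. Of 16 genes for subunits used in most cells, members included, 16 were accessible, with a median of 13.4 and a range of 7.25 to 19.5. Of 9 genes for subunits of restricted use 5 were accessible, or 55.6%, beside the 68.8% of all coding genes. The Wilson 95% interval over genes, 26.7 to 81.1, is no test, because the 9 were chosen and not drawn at random. The 5 accessible genes had a median of 7.62. The highest of these 5 was ATP6V0E2 at 11.9, followed by ATP6V1G2 at 8.49, ATP6V1E2 at 7.62, ATP6V1C2 at 6.42 and ATP6V1B1 at 4.93. The regions of ATP6V1G2 and ATP6V1E2 also hold an end of NFKBIL1 and of RHOQ and cannot be assigned to 1 gene. The same holds in the broad list for ATP6V1E1 with BCL2L13, ATP6V1D with EIF2S1 and ATP6V1A with NAA50. In ATP6V1B1 the site lay at the far end and not at the recorded start. TCIRG1, ATP6V0A4, ATP6V0D2 and ATP6V1G3 had none. The ranges of the accessible genes of the 2 kinds overlapped between 7.25 and 11.9.

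**Figure D5:**
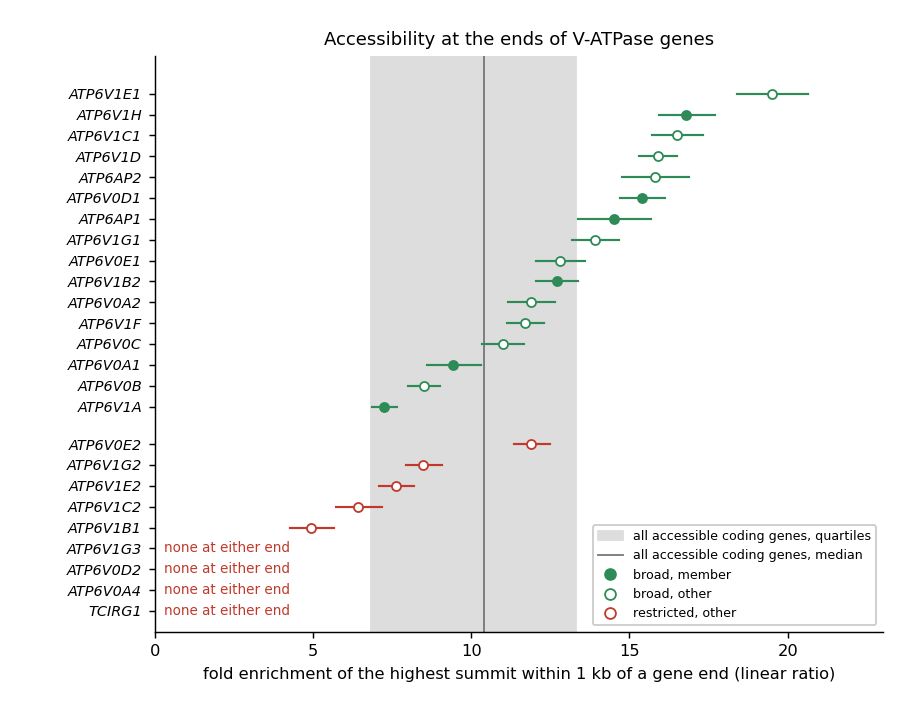
Fold enrichment of the highest summit within 1 kb of an outer end (x axis, linear ratio) for V-ATPase genes of broad use (green; members filled) and restricted use (red); lines are exact Poisson 95% intervals, the band and line the quartiles and median of accessible coding genes. All 16 broad genes had a site, and 4 of the 9 restricted genes had none.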

How the data were processed

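ATAC-seq was done on 3 biological replicates of neurons, deposited as 1 peak list; per the labels its name marks an optimal set under the irreproducible discovery rate, which keeps peaks that rank alike across replicates. Positions are in hg38, per the submitters' processing notes; the aligner, peak caller and filters are not given in the sources used here. Per summit the authors deposited a fold enrichment (a linear ratio), a −log10 p and a whole-number score of 540 to 1000 whose scaling is not stated. The deposited interval bounds and summit offsets are positions in bp; all are printed counted from 1. How reads were shifted for the Tn5 cut is not given in the sources used here, and such a shift would move summits by a few bases.

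Tags were recovered by solving the deposited ratio, as (tags + 1)/(background + 1), together with the deposited −log10 p as a Poisson upper tail. Every entry gave a whole number with a miss of at most 0.00079 in −log10 p; the next candidate typically missed by 0.266. Backgrounds had a floor of 29.2 tags. Entries with equal bounds were merged into 1 interval with the summit of the highest −log10 p. A gene end was called accessible by any summit within 1 kb, and its value is the highest fold enrichment there. Genes, bounds and promoter windows came from RefSeq tables of GRCh38.p14; 191 listed genes matched by symbol and 1 by an older symbol. Each member was set beside the 200 coding genes nearest in length. Scripts (Python 3.11.15; scipy 1.17.1; pandas 2.3.3; numpy 2.4.6) were tested on simulated data. No test was run, because the list is pooled.

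The members and lists were chosen with earlier results of these data known. Named in full are members without an accessible end, the 5 highest and 5 lowest, those with most intervals inside or around, the 3 MiT/TFE factors and those with CACGTG; other pathway genes are named where no end was accessible or among the 3 highest. Other genes named, such as further V-ATPase subunits, cathepsins and pathway genes with the word, were chosen after their values were seen.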

Additional observations from a re-analysis of the deposited data

How the results depend on the processing

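Over 8 results, 37 alternatives were computed: 33 left the result within 1.5 times (counts) or within its counting interval, and 4 moved it. The limit of 1.5 times is wide for counts of accessible genes. Such counts could not rise that far, since 42 members and 120 other genes were listed. Counts at recorded starts also cover fewer genes. The median number of distal intervals per member was 3.50 when every summit was counted, 0.5 within 20 kb and 4.00 within 100 kb, in place of 2. The median inside was 0.5, in place of 0, when all intervals between the outer ends were counted. Accessible members numbered 39 with a score of at least 830 (SCARB2 was lost), 41 with a window of 2 kb (MAP1LC3A was gained), 31 of 33 at recorded starts (ATG5 was lost) and 40 otherwise. Other pathway genes numbered 103 to 107, and 80 of 91 at recorded starts. The median fold enrichment ran from 11.4 to 11.9. No paired analysis was possible because the list is pooled and carries no value per replicate, and leaving out a replicate was not possible either. Depth per sample is unknown, so weak sites that the list lacks may have been missed, and a gene without a summit is not shown to be closed.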

Other observations

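The lysosome is also where cells sense nutrients, through the Ragulator (LAMTOR) and Rag GTPase complexes that recruit the growth kinase mTORC1. Of the 11 genes of this branch among the further pathway genes (LAMTOR1 to LAMTOR5, RRAGA to RRAGD, FLCN and SLC38A9), 11 had an accessible outer end, beside 68.8% of all coding genes and 87.5% of all further pathway genes, and 9 lay above the coding median of 10.4 in fold enrichment. The values ran from 7.11 for RRAGD and 9.56 for LAMTOR2 to 16.4 for RRAGC and 16.7 for SLC38A9. RRAGC and RRAGB, with 16.4 and 15.9, also held CACGTG in their promoter windows, as did LAMTOR1 and LAMTOR4 with 11.7 and 16.0. This grouping was made after the values were seen.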
